A study of Homo sapiens with 21 samples.

Results

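The 38 genes described here code for proteins of the lysosome and of autophagy. They were found by gene name among the 56632 genes of the deposited count tables of a lung cancer RNA-seq study, and all 38 were present and had enough reads to be tested in every fit. Only the name CLN3 stood on more than 1 row; the row of its usual identifier, ENSG00000188603, was used. No measured value enters the rule, but the genes were chosen with earlier results of these data known.

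Lysosomes are acidic organelles whose proteases, glycosidases and lipases break down material delivered by endocytosis and by autophagy, and a proton pump, the V-ATPase, keeps them acidic. In autophagy a kinase complex around ULK1 and a lipid kinase complex around BECN1 start a membrane that ubiquitin-like ATG8 proteins coat and that receptors such as SQSTM1 and NBR1 fill with cargo before it fuses with a lysosome. Many of these genes share a promoter element bound by the transcription factors TFEB, TFE3 and MITF, which the nutrient-sensing kinase mTORC1 holds in the cytoplasm.

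The study asked how lung cancer cells tolerate inhibitors of the EGF receptor, and it sequenced messenger RNA in 21 libraries of 5 human cell lines. PC9 and HCC827, EGFR-mutant lung cancer lines labelled sensitive to both drugs, were each sequenced as parental cells and as cells made tolerant by 14 days in 40 nM gefitinib or in 20 nM osimertinib. AALE, an immortalized tracheobronchial epithelial line grown in a medium of its own, HCC827 and PC9 were each sequenced with overexpression of a scrambled control, of miR-147b or of miR-21; the protocols describe lentiviral infection and puromycin selection without naming the groups, and also an organoid culture without saying whether any library came from it. H1975 and PC9ER, described in the labels as carrying the gatekeeper mutation of EGFR, were each sequenced under a control, a miR-147b or a miR-21 knockdown. Each of these 9 groups holds 1 library per line, so the lines serve as replicates (n = 2 for tolerance and knockdown, n = 3 for overexpression), and nothing says whether libraries of a line came from separate cultures. Expected counts, which are read counts estimated per gene, summed to 15516460 to 29694050 per library. Levels are given in CPM, expected counts scaled to the library's total with TMM factors, and log2 changes with the SE of the fit. The PC9ER library with miR-21 knockdown stood apart, since 28.9% of all genes differed from its control by a log2 of at least 1, against 3.98 to 8.13% in the other microRNA libraries.

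Promoter sequences were available for 30 of the 38 genes, from RefSeq on GRCh38.p14, as windows of 250 bases before to 50 bases after each gene's start. The 6-letter E-box CACGTG, a palindrome that reads the same on both strands, was found in a window of 8 of these 30 genes (26.7%) and of 8.77% of all 27305 genes with a window. The 8-letter TCACGTGA, which contains the E-box and is the core of the element bound by TFEB, was found in 6 of the 30 (20.0%) and in 1.18% of all genes; the 6 were LAMP1, MCOLN1, CLN3, CTSA, GAA and ATP6V0D1, and CTSD and NEU1 held the shorter motif alone. The first 4 windows below are shown because they hold the motif, in capitals. NEU1 is also the only gene of the 38 whose change with tolerance was called between lines, though not in a further fit described later. The last 2 belong to the genes with the largest differences in tolerant cells, and neither motif occurs in them. The windows are LAMP1 at chr13:113296989-113297288 on the plus strand, MCOLN1 at chr19:7522374-7522673 on the plus strand, GAA at chr17:80101331-80101630 on the plus strand, NEU1 at chr6:31862772-31863071 on the minus strand, GABARAPL1 at chr12:10212627-10212926 on the plus strand and CTSH at chr15:78944997-78945296 on the minus strand.
LAMP1: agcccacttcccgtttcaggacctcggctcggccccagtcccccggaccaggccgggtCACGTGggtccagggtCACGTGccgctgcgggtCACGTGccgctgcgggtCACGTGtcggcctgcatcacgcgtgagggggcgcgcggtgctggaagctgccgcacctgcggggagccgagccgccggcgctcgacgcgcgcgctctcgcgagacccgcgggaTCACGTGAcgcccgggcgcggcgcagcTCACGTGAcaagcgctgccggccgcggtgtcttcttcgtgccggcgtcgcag
MCOLN1: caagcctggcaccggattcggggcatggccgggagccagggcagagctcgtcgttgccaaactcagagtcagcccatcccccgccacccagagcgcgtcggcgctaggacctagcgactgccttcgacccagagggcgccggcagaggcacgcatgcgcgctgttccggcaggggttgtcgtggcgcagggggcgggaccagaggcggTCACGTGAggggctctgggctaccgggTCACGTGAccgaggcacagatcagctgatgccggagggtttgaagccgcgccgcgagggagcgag
GAA: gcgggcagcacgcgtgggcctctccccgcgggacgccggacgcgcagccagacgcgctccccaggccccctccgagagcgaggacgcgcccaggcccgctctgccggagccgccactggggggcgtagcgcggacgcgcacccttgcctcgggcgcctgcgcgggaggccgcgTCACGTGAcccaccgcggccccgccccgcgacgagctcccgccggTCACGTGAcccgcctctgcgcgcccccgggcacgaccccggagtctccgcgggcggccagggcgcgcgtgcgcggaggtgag
NEU1: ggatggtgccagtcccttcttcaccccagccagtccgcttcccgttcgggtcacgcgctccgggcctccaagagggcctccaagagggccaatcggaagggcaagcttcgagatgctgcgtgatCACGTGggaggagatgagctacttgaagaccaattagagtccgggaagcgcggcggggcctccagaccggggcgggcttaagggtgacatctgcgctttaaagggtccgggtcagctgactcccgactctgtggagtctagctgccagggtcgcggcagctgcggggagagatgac
GABARAPL1: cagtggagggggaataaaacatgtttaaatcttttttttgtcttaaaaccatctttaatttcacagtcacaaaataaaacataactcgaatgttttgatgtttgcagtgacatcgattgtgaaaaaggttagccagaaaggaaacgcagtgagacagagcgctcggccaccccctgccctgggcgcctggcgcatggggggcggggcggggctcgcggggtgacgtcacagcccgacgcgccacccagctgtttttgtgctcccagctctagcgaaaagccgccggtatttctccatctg
CTSH: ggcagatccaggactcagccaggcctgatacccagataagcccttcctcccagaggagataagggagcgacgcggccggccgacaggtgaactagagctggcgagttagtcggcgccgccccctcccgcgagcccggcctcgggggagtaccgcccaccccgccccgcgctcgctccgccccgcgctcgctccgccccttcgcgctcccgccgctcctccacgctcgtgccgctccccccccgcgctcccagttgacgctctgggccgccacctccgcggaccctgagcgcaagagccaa

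Levels per kilobase of exon set the genes in order in the untreated and control libraries. PSAP, the precursor of the saposins that help lysosomal enzymes reach sphingolipids, had a median level of 336 CPM per kilobase over 7 such libraries (range 183 to 626), and CTSD, the main aspartic protease of the lysosome, had 160 (range 121 to 449). TFEB was the lowest of the 38 at a median of 0.303 CPM per kilobase, with a range of 0.0764 in parental HCC827 to 2.02 in AALE. TFEB in HCC827 rested on 3.85 to 35 expected counts per library, so its ratios there are imprecise. The other MiT/TFE factors were higher, with medians of 9.67 for TFE3 and 1.97 for MITF. Exon lengths come from another build than the authors' counts, so these levels are approximate.

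**Figure D1:**
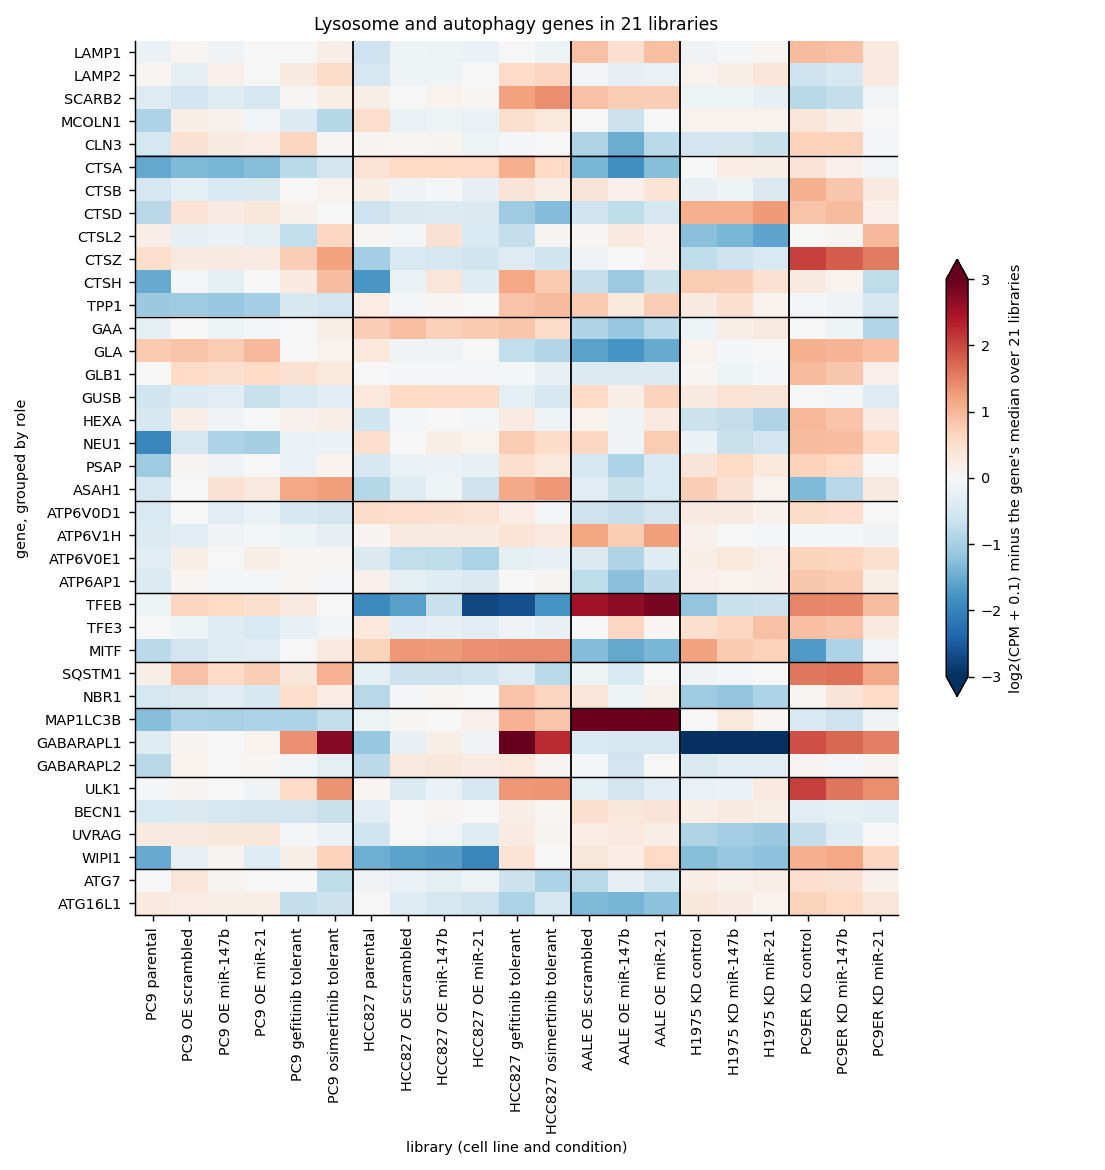
Heat map of the 38 genes (rows, grouped by role) in the 21 libraries (columns, grouped by line), as log2 CPM minus each gene's median over the libraries, with red above and blue below the median. GABARAPL1 is red in the tolerant libraries and in PC9ER and deep blue in H1975, and MAP1LC3B is deep red in all 3 AALE libraries.

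Most lysosome and autophagy genes stood higher in drug-tolerant than in parental cells, led by GABARAPL1, CTSH, ASAH1 and WIPI1, while GLA and ATG16L1 stood lower. Averaged over both drugs and both lines, 31 of the 38 genes had a positive log2 change and their median was 0.31, against a median of 0.04 and 52% positive over all 19837 genes tested. At an adjusted p under 0.05 (edgeR quasi-likelihood test, Benjamini-Hochberg over all genes), 0 of the 38 genes were called for gefitinib, for osimertinib and for their mean, where 0% of all genes were called. At an unadjusted p under 0.05 it gave 16 of the 38 for each of the 3 comparisons, where 17.5%, 19.8% and 23.5% of all genes were under it. For each drug 13 were higher and 3 lower, where 9.21% and 8.27% of all genes were with gefitinib and 9.83% and 9.96% with osimertinib. For the mean 14 were higher and 2 lower, where 11.2% of all genes were higher and 12.2% lower. The DESeq2 Wald test called 8, 8 and 11 of the 38, and 7.98%, 10.8% and 14.6% of all genes that it gave an adjusted p. Without the parental PC9 library the edgeR counts were 9, 10 and 10, where 16.5%, 18.4% and 21.3% of all genes were called, and those fits compare tolerant with parental cells in HCC827 alone. Both drugs were compared with the same parental libraries, so their values are not independent. The parental PC9 library was also the lowest of the 6 PC9 libraries for 24 of the 38 genes, against 20.9% of all genes. With the overexpression libraries as further drug-free controls, described later, the median of the 38 genes was 0.16, against 0.07 over all genes. In bulk RNA, fewer cells of a kind and less RNA per cell cannot be told apart.

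The ATG8 family held the largest difference. GABARAPL1, an ATG8 protein of the autophagosome membrane, was at 22.0 CPM in parental PC9, against 73.3 after gefitinib and 189 after osimertinib. In HCC827 it was at 12.8 CPM in parental, 245 in gefitinib-tolerant and 133 in osimertinib-tolerant cells. Every tolerant library was above every drug-free library of its line, and the mean log2 change was 3.15 ± 0.65 (SE). MAP1LC3B, the ATG8 protein most used to follow autophagy, was at 89.5 CPM in parental HCC827 against 205 and 176 with gefitinib and osimertinib, and at 40.6 against 51.7 and 59.01 in PC9. GABARAPL2 showed log2 ratios of 0.55 to 1.10 over the 4 pairs. None of these genes passed the adjusted threshold (edgeR adjusted p = 0.117 for GABARAPL1 over both drugs).

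Among the genes that start autophagy, ULK1 and WIPI1 had the largest differences. WIPI1, which binds the lipid phosphatidylinositol 3-phosphate on the forming membrane, was at 2.53 CPM in parental PC9 against 8.38 after gefitinib and 12.045 after osimertinib. It was at 2.59 CPM in parental HCC827 against 9.90 and 7.38, a mean log2 change of 1.84 ± 0.36 (SE). Both tolerant libraries lay above the parental library in both lines, as they did for 25.4% of all genes. ULK1, the kinase that starts the pathway, was at 49.5 CPM in parental PC9 against 75.2 and 129, and at 52.2 in parental HCC827 against 124 and 126. BECN1 and UVRAG, partners in the lipid kinase complex, had log2 ratios below 0 in both PC9 pairs and above 0 in both HCC827 pairs (UVRAG -0.29 and -0.45 in PC9, 0.85 and 0.67 in HCC827).

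The 2 cargo receptors differed from each other. NBR1 was at 63.5 CPM in parental PC9 against 131 and 107 in the gefitinib-tolerant and osimertinib-tolerant cells. In HCC827 it was at 51.0 CPM against 164 and 141, and the mean log2 change was 1.20 ± 0.24 (SE). SQSTM1, also called p62, ran from 681 CPM to 755 and 1245 in PC9 but from 489 to 459 and 341 in HCC827, so its 4 pairs had no common direction.

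Of the lysosomal proteases, CTSH had the largest difference, and of the sphingolipid enzymes ASAH1. CTSH, a cysteine protease with aminopeptidase activity, was at 25.2 CPM in parental PC9 against 88.3 and 137 with gefitinib and osimertinib. It was at 21.5 CPM in parental HCC827 against 160 and 125, a mean log2 change of 2.40 ± 0.32 (SE). The parental library was the lowest of the 3 in both lines. ASAH1, the acid ceramidase, was at 52.1 CPM in parental PC9 against 164 and 174, and at 40.7 in parental HCC827 against 161 and 180, a mean log2 change of 1.85 ± 0.21 (SE). PSAP was at 594 CPM in parental PC9 against 1088.5 and 1353, and at 881 in parental HCC827 against 1779 and 1562. TPP1, a tripeptidyl peptidase, and HEXA, a subunit of beta-hexosaminidase, were above parental in all 4 pairs by log2 ratios of 0.54 to 0.73 and of 0.47 to 0.83. So were CTSZ by 0.21 to 0.66, CTSA by 0.16 to 1.00 and CTSB, which barely differed in osimertinib-tolerant HCC827, by up to 0.61. The glycosidases GAA, which digests glycogen, and GLB1, the beta-galactosidase, had ratios on both sides of 0, of -0.18 to 0.47 and of -0.22 to 0.43.

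The lysosomal membrane proteins had smaller differences. SCARB2, which carries glucocerebrosidase to the lysosome, was at 76.8 CPM in parental PC9 against 104 and 115, and at 115 in parental HCC827 against 233 and 266. LAMP2, a major membrane glycoprotein, was at 139 CPM in parental PC9 against 162 and 196, and at 95.0 in parental HCC827 against 201 and 208. LAMP1 had log2 ratios of 0.16 to 0.61 over the 4 pairs, and MCOLN1, the calcium channel of the lysosome, had ratios of -0.23 to 0.51. CLN3, a membrane protein mutated in a childhood storage disease, was above parental in PC9 (log2 ratios 1.18 and 0.57) and below it in HCC827 (-0.13 and -0.09). The 4 V-ATPase genes stayed within log2 ratios of -0.59 to 0.45. Of the MiT/TFE factors, MITF had log2 ratios of 0.73 to 1.11 in the 4 pairs, TFE3 of -0.53 to -0.10, and TFEB, at low counts, of -0.73 to 0.41. The 8 genes with a CACGTG in the promoter window had a median log2 change over both drugs of 0.23 (range -0.31 to 0.85), and the 22 without it in theirs had 0.29 (range -0.97 to 3.15).

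GLA and ATG16L1 were lower in all 4 pairs, as were 21.8% of all genes. GLA, the alpha-galactosidase, was at 65.2 CPM in parental PC9 against 37.0 and 40.6, and at 46.5 in parental HCC827 against 22.3 and 20.3, a mean log2 change of -0.97 ± 0.21 (SE). ATG16L1, part of the enzyme that attaches ATG8 proteins to lipid, was at 92.6 CPM in parental PC9 against 46.6 and 48.5, and at 76.2 in parental HCC827 against 39.3 and 53.7, a mean log2 change of -0.87 ± 0.20 (SE). TFE3 and ATP6V0D1, a subunit of the V-ATPase membrane sector, were also lower in all 4 pairs, with mean log2 changes of -0.35 ± 0.21 and -0.31 ± 0.21 (SE). The value of TFE3 was 0.01 in the fit with further drug-free libraries described later.

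Counted pair by pair, without replicates, a log2 ratio of at least 1 was reached in gefitinib-tolerant PC9 by 7 of the 38 genes, against 14.2% of all genes. In osimertinib-tolerant PC9 it was 8 of 38, against 16.5%, in gefitinib-tolerant HCC827 11 of 38, against 20.0%, and in osimertinib-tolerant HCC827 8 of 38, against 20.2%. A ratio of at most -1 was reached by 0 of 38 in either PC9 pair, where 7.18% of all genes reached it with gefitinib and 8.46% with osimertinib. GLA alone reached it in HCC827, where 14.0% and 13.6% of all genes did. CTSH, ASAH1, GABARAPL1 and WIPI1 reached a log2 ratio of 1 in all 4 pairs. The share of all genes that did so is not given here, so whether this is unusual cannot be told. Within single pairs the counts of higher genes lie near or moderately above the background, and those of lower genes below it. Without a fold, both tolerant libraries lay above the parental library in both lines for 21 of the 38 genes, against 25.4% of all genes. They lay below it in both lines for 4 of the 38, against 21.8% of all genes.

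**Figure D2:**
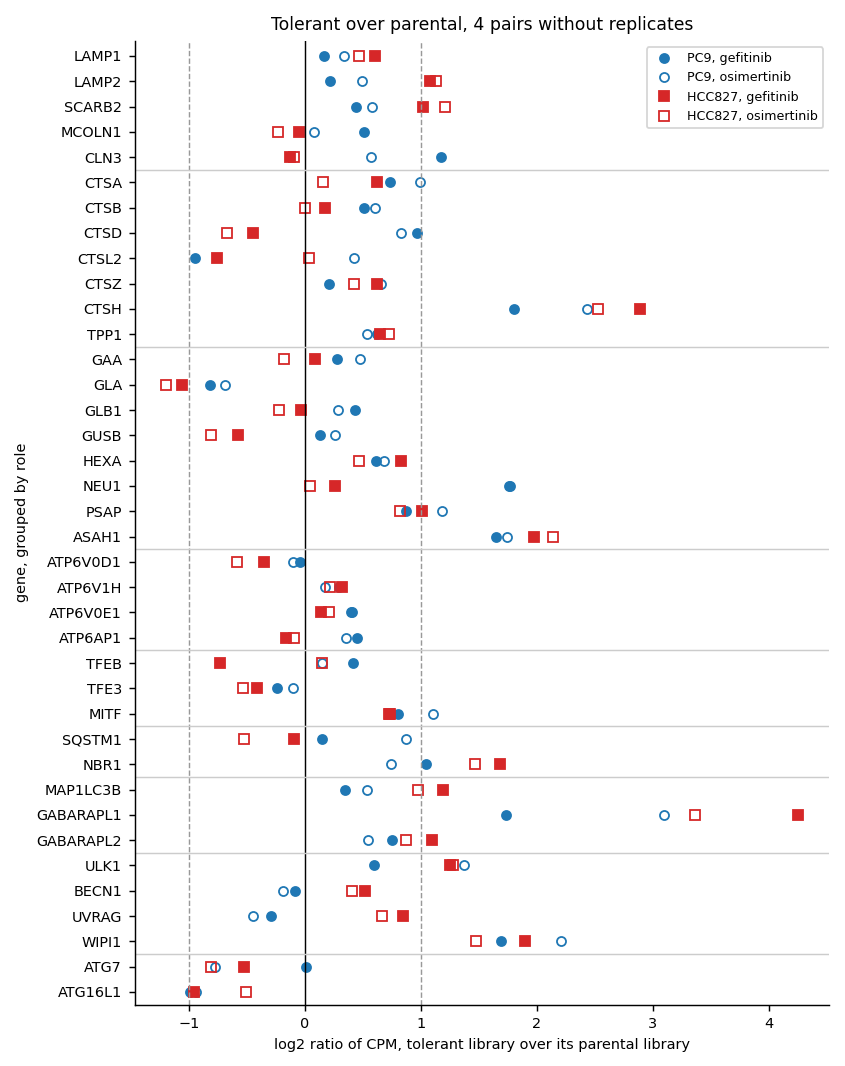
Log2 ratio of CPM of each tolerant library over the parental library of its line, for the 38 genes grouped by role; blue circles are PC9, red squares HCC827, filled gefitinib and open osimertinib, and dashed lines mark a log2 ratio of 1 in either direction. GABARAPL1, CTSH, ASAH1 and WIPI1 lie past the upper line in all 4 pairs, while CTSD and UVRAG lie on opposite sides of 0 in the 2 lines.

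None of the 38 genes passed the test between osimertinib-tolerant and gefitinib-tolerant cells, and their log2 differences ran from -0.56 to 1.08. Between the drugs 0 of the 38 genes and 0% of all genes were called by edgeR, DESeq2 called 0 of the 38 and 0.0353% of all genes, and 1 of the 38 and 0.998% of all genes had an unadjusted p under 0.05 in edgeR. That gene was CTSL2, the cysteine protease now named CTSV. In PC9 it was at 43.7 CPM in the parental library, at 22.7 with gefitinib and at 58.6 with osimertinib, and in HCC827 at 39.1, 23.1 and 40.2 CPM. The gefitinib-tolerant library was the lowest of the 3 in both lines, and the log2 difference between drugs was 1.08 ± 0.26 (SE, edgeR adjusted p = 1).

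The parental PC9 library was the lowest of the 6 PC9 libraries for 24 of the 38 genes, against 20.9% of all genes, so the overexpression libraries of the same line were set beside it. In the scrambled control 32 of the 38 genes were above parental PC9, with a median log2 ratio of 0.31 against -0.004 over all genes, and in HCC827 20 of the 38 were, with a median of 0.16 against 0.016. PSAP was at 1321 CPM in scrambled-control PC9, above the gefitinib-tolerant library. Vector, culture and experiment cannot be told apart between parental and overexpression libraries.

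Set against all 4 drug-free libraries of their line, both tolerant libraries stood above in PC9 for 15 of the 38 genes (23.2% of all genes) and in HCC827 for 18 (32.0%). They stood above in both lines for 12 of the 38, against 12.7% of all genes, namely LAMP2, SCARB2, CTSB, CTSH, TPP1, NEU1, ASAH1, MITF, NBR1, GABARAPL1, ULK1 and WIPI1. They stood below all drug-free libraries for 5 of the 38 in PC9 (20.4% of all genes), for 5 in HCC827 (25.3%) and for 2 in both lines (12.7%), GLA and ATP6V0D1. GABARAPL1 was at 28.2 to 30.4 CPM in the 3 overexpression PC9 libraries and at 24.2 to 31.7 in those of HCC827, well under the tolerant libraries. CTSH was at 58.6 to 71.8 CPM in overexpression PC9 and 55.5 to 91.8 in overexpression HCC827, so its margin was narrower than against the parental cells. Some margins were very small. In HCC827 the lower tolerant library had 400.2 CPM of CTSB against at most 400.0 without drug, 55.59 of MITF against 54.15 and 80.96 of NEU1 against 78.32. In PC9 WIPI1 had 8.38 against 7.81.

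In a fit of these 12 libraries with the line as a block, chosen after seeing the data, 13 of the 38 genes were higher and 4 lower over both drugs (edgeR quasi-likelihood test, Benjamini-Hochberg adjusted p under 0.05), where 18.2% of all genes were higher and 17.4% lower. The overexpression libraries, from another experiment, counted there as controls beside the parental ones. The lines were still 2, so these p-values reflect spread among libraries of the same lines. GABARAPL1 rose by a log2 of 2.62 ± 0.29 (SE, edgeR adjusted p = 0.000103), WIPI1 by 1.41 ± 0.29, ASAH1 by 1.38 ± 0.19, ULK1 by 1.28 ± 0.15 and CTSH by 1.14 ± 0.33. SCARB2, NBR1, TPP1, NEU1, LAMP2, MAP1LC3B, CTSA and CTSB rose by 0.89 to 0.39. GLA changed by -0.84 ± 0.12, ATG16L1 by -0.64 ± 0.15, ATG7, which activates ATG8 proteins for conjugation, by -0.55 ± 0.12 and ATP6V0D1 by -0.36 ± 0.11. PSAP at 0.43 ± 0.19 and MITF at 0.44 ± 0.16 did not pass (edgeR adjusted p = 0.107 and 0.0532), and the median of the 38 genes was 0.16, against 0.31 with parental controls alone.

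**Figure D3:**
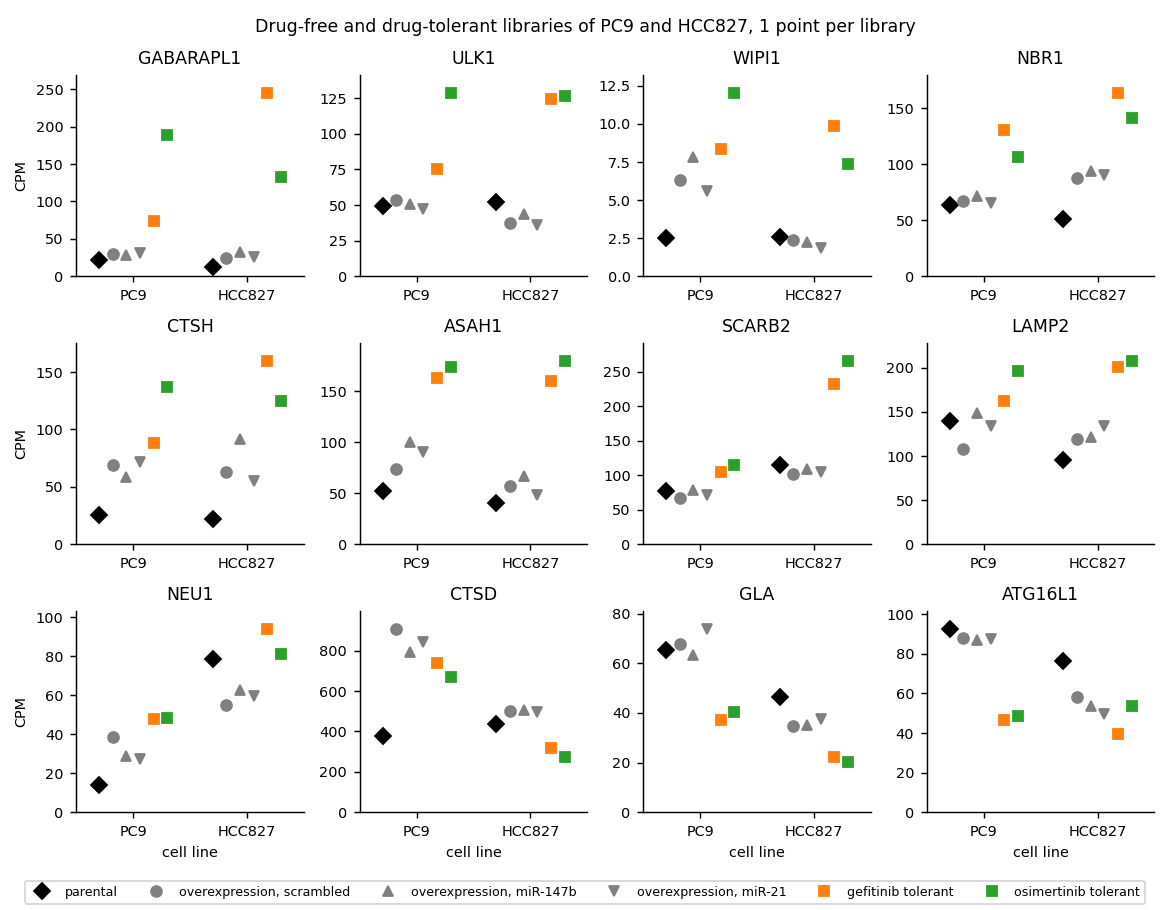
CPM of 12 genes in the 6 libraries of PC9 and the 6 of HCC827, 1 point per library, with parental cells as black diamonds, overexpression libraries in grey, and gefitinib-tolerant and osimertinib-tolerant cells in orange and green. GABARAPL1 and ASAH1 are above every drug-free library in both lines, GLA is below, and the parental PC9 point of NEU1 and CTSD lies well under the grey points.

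The response of NEU1 differed between the lines when parental cells alone were the controls. NEU1, the lysosomal sialidase, was at 14.1 CPM in parental PC9 against 48.0 and 48.4 in tolerant PC9, and at 78.3 in parental HCC827 against 94.0 and 81.0. The log2 change in HCC827 minus that in PC9 was -1.67 ± 0.23 (SE, edgeR Benjamini-Hochberg adjusted p = 0.0382), and 1 of the 38 genes, NEU1 itself, was called, where 3.90% of all genes were. Each line had 1 parental library in that fit, so its SE and p-values do not cover spread between parental libraries. They rest on the gefitinib-tolerant and osimertinib-tolerant libraries of a line, which were taken as replicates of tolerance. Overexpression PC9 libraries had 27.4 to 38.6 CPM of NEU1, above the parental library. In the 12-library fit the difference was -0.44 (edgeR adjusted p = 0.569), and it did not pass without any 1 of the 4 tolerant libraries or without the filter on low counts (edgeR adjusted p = 0.0687 for the latter), fits in which 0% to 0.00832% of all genes passed. In the 12-library fit 1 of the 38 genes passed, where 9.02% of all genes did. It was GUSB, the beta-glucuronidase, with a log2 difference of -1.07 ± 0.20 (SE, edgeR adjusted p = 0.00609). GUSB was at 48.2 CPM in parental HCC827 against 32.4 and 27.4 in tolerant cells, and at 25.8 against 28.2 and 30.9 in PC9. CTSD pointed the same way, from 377 CPM to 740.1 and 672 in PC9 and from 437 to 320.4 and 274 in HCC827, a log2 difference of -1.51 ± 0.27 (SE) that missed the threshold (edgeR adjusted p = 0.0534). In the 12-library fit it was -0.73 ± 0.38 (edgeR adjusted p = 0.271).

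Cell cycle transcripts were at lower levels in every tolerant library than in its parental library. The summed level of 7 cell cycle genes was 2828 CPM in parental PC9 against 1417 and 1404 in tolerant PC9, and 2377 in parental HCC827 against 223 and 313, and its part in the differences above was not tested. The summed level of 5 epithelial markers was 7488 CPM in parental PC9 against 8136 and 7334, and 6635 in HCC827 against 4464 and 4147, and leukocyte and macrophage markers summed to 1.39 to 18.6 CPM in these 6 libraries. The 3 basal airway markers summed to 369 CPM in parental PC9 against 53.7 and 95.6 in tolerant PC9, and to 4.97 in parental HCC827 against 1.79 and 1.69, and the 3 alveolar markers to 0.35 to 0.71 CPM in PC9 and 67.3 to 95.8 in HCC827; their part in the results was not tested.

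Other genes of the same pathways, 134 in 8 lists, gave a mixed picture over both drugs. edgeR called 0 of the 132 tested at an adjusted p under 0.05, and 39 had an unadjusted p under 0.05, where 23.5% of all genes did. Of the 39, 32 were higher and 7 lower, where 11.2% of all genes were higher and 12.2% lower at that threshold. Of other lysosomal hydrolases 19 of 22 had a positive log2 change (median 0.42), and of other autophagy receptors 8 of 9 (median 0.51), while other core autophagy genes had 9 of 23 positive (median -0.12), other V-ATPase subunits 8 of 14 and other lysosomal membrane proteins 7 of 15. Other lysosomal proteases had 6 of 9 positive, genes of mTORC1 and amino acid sensing 15 of 22, and genes of lysosomal sorting and fusion 11 of 18. MANBA, the beta-mannosidase, was at 7.69 CPM in parental PC9 against 28.3 and 31.1 and at 13.4 in parental HCC827 against 43.7 and 42.5, and OPTN, a receptor for ubiquitin-marked cargo, was at 40.0 CPM against 91.8 and 117 and at 13.1 against 67.2 and 49.5. Between the lines, the change of LAMTOR4 and RRAGA, which hold mTORC1 at the lysosome, was lower in HCC827. The log2 differences were -2.00 ± 0.20 and -1.34 ± 0.22 (SE, edgeR adjusted p = 0.0333 and 0.0465). The change of RB1CC1, a scaffold of the ULK1 complex, was higher by 1.54 ± 0.21 (SE, edgeR adjusted p = 0.0382). In that comparison, with parental controls alone, 3.90% of all genes were called. Values of these genes in the fit with further drug-free controls are not given here.

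Drug-free levels differed widely between the lines. In the comparisons of lines the replicates were the 3 differently treated libraries of each line. Their p-values measure spread among those libraries, not between independent lines of a kind. AALE differed from the mean of HCC827 and PC9 in 30 of the 38 genes, 13 higher and 17 lower, in the edgeR test over the 9 overexpression libraries, where 66.3% of all genes differed. MAP1LC3B was at 756 to 764 CPM in the 3 AALE libraries, 99.0 to 110 in HCC827 and 50.1 to 51.9 in PC9, higher in AALE by a log2 of 3.38 ± 0.07 (SE, edgeR adjusted p = 2.62e-09). TFEB was at 11.4 to 14.3 CPM in AALE, 0.203 to 1.17 in HCC827 and 2.67 to 3.05 in PC9, higher in AALE by 3.22 ± 0.28. The lines did not overlap in either gene, but the share of all genes without overlap is not given here. WIPI1, TPP1, ATP6V1H and SCARB2 were higher in AALE by 1.01 to 1.38. GLA was lower in AALE, with a log2 difference of -2.03 ± 0.09, at 10.99 to 13.1 CPM against 34.7 to 37.6 in HCC827 and 63.5 to 73.9 in PC9. MITF, GAA, CLN3, ATG16L1 and CTSA were lower, with log2 differences of -1.87 to -1.13. MAP1LC3B2, a gene nearly identical to MAP1LC3B, had 528 to 640 expected counts in AALE and 23.6 to 124 in the HCC827 and PC9 libraries, so reads shared between the 2 genes may have been split in either direction. The growth medium of AALE differed from that of the cancer lines, and line and medium cannot be told apart.

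HCC827 and PC9 differed in 26 of the 38 genes, 13 in each direction, where 62.0% of all genes did. CTSA, the protease that stabilizes NEU1 and beta-galactosidase, was at 385 to 391 CPM in overexpression HCC827 and 100.03 to 107 in PC9, higher in HCC827 by a log2 of 1.94 ± 0.13 (SE, edgeR adjusted p = 1.49e-06). MITF was at 51.1 to 54.1 CPM in HCC827 and 14.1 to 16.8 in PC9, higher by 1.77 ± 0.12. SQSTM1 was at 381 to 397 CPM in HCC827 and 893 to 1099 in PC9, a log2 difference of -1.32 ± 0.11. TFEB and WIPI1 were also lower in HCC827, with log2 differences of -2.11 ± 0.40 and -1.58 ± 0.22. TPP1, GUSB and MAP1LC3B were higher by 1.05 to 1.11. These values come from the overexpression libraries. In the parental libraries WIPI1 was at 2.59 CPM in HCC827 and 2.53 in PC9, so its difference was not seen there.

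The share of the 38 genes that differed between the knockdown lines was near that of all genes. By the same test over the 6 knockdown libraries, 16 of the 38 genes differed, where 46.1% of all genes did. Of the 16, 2 were higher and 14 lower in H1975. That split was not set against that of all genes, so it cannot show whether these genes lean lower more than others. GABARAPL1 was at 1.24 to 2.37 CPM in H1975 and 80.9 to 109 in PC9ER, a log2 difference of -5.70 ± 0.32 (SE, edgeR adjusted p = 0.000414). WIPI1 was at 3.00 to 3.32 CPM against 11.3 to 16.7 and ULK1 at 43.7 to 62.2 against 132 to 210. SQSTM1 was at 553 to 600 CPM against 1318 to 1853. The lines did not overlap in any of these genes, but the share of all genes without overlap is not given here. CTSZ, a carboxypeptidase, was at 61.0 to 75.4 CPM against 304 to 429, a log2 difference of -2.44 ± 0.26. TFEB, CTSL2, HEXA, NBR1, NEU1, CLN3, CTSB, GLA and LAMP1 were lower, with log2 differences of -2.22 to -0.76. MITF, at 34.1 to 48.7 CPM against 6.35 to 19.7, and CTSH, at 98.7 to 122 against 42.6 to 86.6, were higher in H1975 by 1.78 ± 0.46 and 0.75 ± 0.25. The count was 27 of 38 without the miR-21 knockdown library of either line, where 64.8% or 65.4% of all genes differed. It was 10 without either control, where 32.9% or 32.0% differed, and 7 without either miR-147b knockdown library, where 24.5% or 24.1% did. In 1 fit of all 21 libraries it was 26, where 52.9% of all genes differed.

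**Figure D4:**
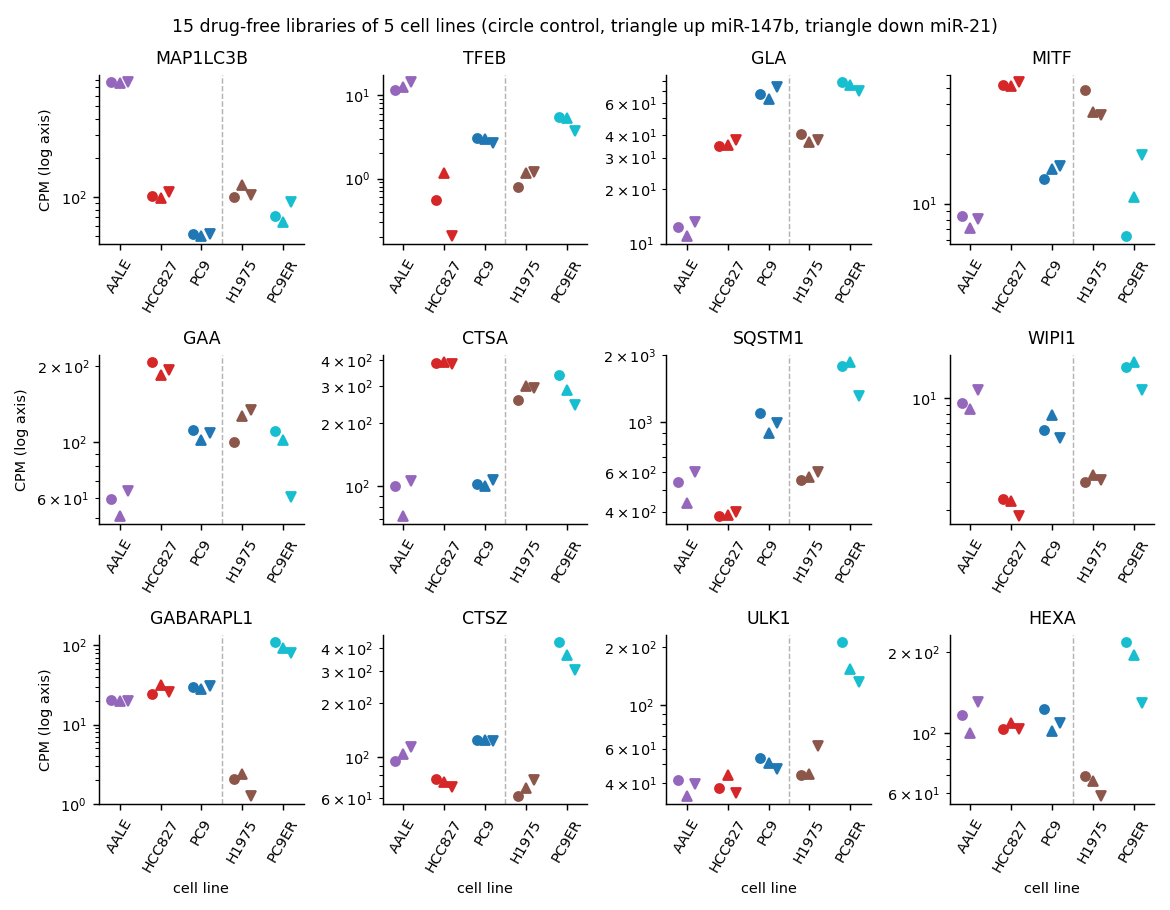
CPM on a log axis of 12 genes in 15 drug-free libraries, 3 per cell line, with the overexpression lines left of the dashed line and the knockdown lines right of it. MAP1LC3B and TFEB are highest in AALE, and GABARAPL1 is lowest in H1975 and highest in PC9ER.

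Of the other lists, MAP1LC3A, a further ATG8 gene, was at 16.5 to 25.7 CPM in AALE and at 0 to 0.19 in HCC827 and PC9, and 8 of 9 other autophagy receptors were higher in AALE, where 34.4% of all genes were, led by OPTN (log2 difference 1.93 ± 0.08, edgeR adjusted p = 5.32e-08). NAPSA, a lysosomal protease of the alveolar epithelium, was at 84.6 to 124 CPM in overexpression HCC827 and at 0.0952 to 0.191 in PC9. SORT1, a sorting receptor for lysosomal enzymes, was lower in H1975 than in PC9ER, with a log2 difference of -4.20 ± 0.33 (edgeR adjusted p = 0.000669).

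None of the 38 genes passed the test with either microRNA overexpressed or knocked down. The mature sequences of the microRNAs named in the labels, from RefSeq, are shown because they are the agents of these experiments, with the seed, bases 2 to 8, in capitals; the seeds differ. In GRCh38.p14 they lie on the plus strand, hsa-miR-147b-3p at chr15:45433098-45433118 and hsa-miR-21-5p at chr17:59841273-59841294.
hsa-miR-147b-3p: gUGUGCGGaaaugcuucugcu
hsa-miR-21-5p: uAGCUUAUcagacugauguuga

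The MIR147B gene had 526, 386 and 61.0 expected counts in the miR-147b overexpression libraries of AALE, HCC827 and PC9 and 0 in all others, while MIR21 had at most 0.18 anywhere and messenger RNA libraries do not measure the mature microRNAs, so the miR-21 overexpression and both knockdowns were not checked. At an adjusted p under 0.05 the edgeR test called 0 of the 38 genes in each of the 4 comparisons, and 0 had an unadjusted p under 0.05. Of all genes it called 0.00543% for miR-147b overexpression and 0% for the other 3, and DESeq2 called 0 of the 38 in each and at most 0.209% of all genes. An unadjusted p under 0.05 was reached by 4.49% of all genes for miR-147b overexpression, 0.928% for miR-21 overexpression, 0.824% for miR-147b knockdown and 2.01% for miR-21 knockdown. For miR-147b overexpression the log2 changes of the 38 lay between -0.30 and 0.35, for miR-21 overexpression between -0.11 and 0.12, for miR-147b knockdown between -0.26 and 0.20 and for miR-21 knockdown between -0.68 and 0.57. The 2 microRNAs shared the control libraries of each experiment.

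Genes with the same sign in every line differed by little. With miR-147b overexpression CTSL2 had a log2 change of 0.30 ± 0.15 (SE), and ATP6AP1, an accessory subunit of the V-ATPase, ATP6V0E1, LAMP1, GAA, ATP6V0D1 and ATG16L1 had changes of -0.20 to -0.06. With miR-21 overexpression GLA and MAP1LC3B had 0.12 and 0.05, and ULK1, ATP6AP1 and BECN1 had -0.11 to -0.07. With miR-147b knockdown WIPI1, LAMP2, BECN1, SQSTM1 and CLN3 had 0.11 to 0.01, and NEU1, GLB1, HEXA, CTSH, GLA and ATG16L1 had -0.26 to -0.09. With miR-21 knockdown LAMP2, NBR1 and MAP1LC3B had 0.57 to 0.20, and CTSH, GABARAPL1, HEXA, CTSB, GLB1 and CLN3 had -0.68 to -0.42. None of them passed the test (edgeR adjusted p of 0.833 or above).

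Single microRNA libraries showed a little more. In 8 of the 10 pairs none of the 38 genes reached a log2 ratio of 1 in either direction. This made 0 of 304 values, against 5.94% of all gene values in those pairs. The 8 pairs were grouped because none of the 38 genes passed, so the 0 follows from that choice. It cannot show whether the 38 genes varied less than all genes. In AALE with miR-147b, 31 of the 38 genes were below the scrambled control with a median log2 ratio of -0.23, against 0.01 over all genes. NEU1 was at 51.0 CPM there against 85.0 in the control, MCOLN1 at 11.6 against 18.1 and CLN3 at 19.0 against 28.7, while TFE3 was at 62.3 against 40.8. The median of the 38 was 0.02 in HCC827 and -0.08 in PC9 with the same microRNA, with 14 and 28 of the 38 below their control. The basal airway markers summed to 5160 CPM in that AALE library against 1705 in its control, and their part in the result was not tested. In HCC827 with miR-21, TFEB alone passed the fold, at 3.85 expected counts against 11 in the control, where 2.69% of all genes were lower by that fold.

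The PC9ER library with miR-21 knockdown stood apart from its control in all genes and in these. ASAH1 was at 88.6 CPM against 29.5 in the control, and MITF at 19.7 against 6.35, where 22.5% of all genes were higher by a log2 of at least 1. CTSH, at 42.6 CPM against 86.6, was lower by that fold, where 6.44% of all genes were. LAMP2, at 165 against 87.7, and SCARB2, at 96.2 against 56.3, were also above the control, while 30 of the 38 genes were lower and the median log2 ratio was -0.43, against -0.04 over all genes. Without TMM factors the median of all genes there was 0.16, 25 of the 38 were lower and CTSH was not past the fold. In H1975 with miR-21 knockdown ASAH1 was at 79.2 CPM against 122.9 and MITF at 34.1 against 48.7, the opposite direction, and the median of the 38 was -0.02. Left without the H1975 miR-21 library, the test of miR-21 knockdown, then resting on PC9ER alone, called 15 of the 38 genes, where 30.1% of all genes were called.

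**Figure D5:**
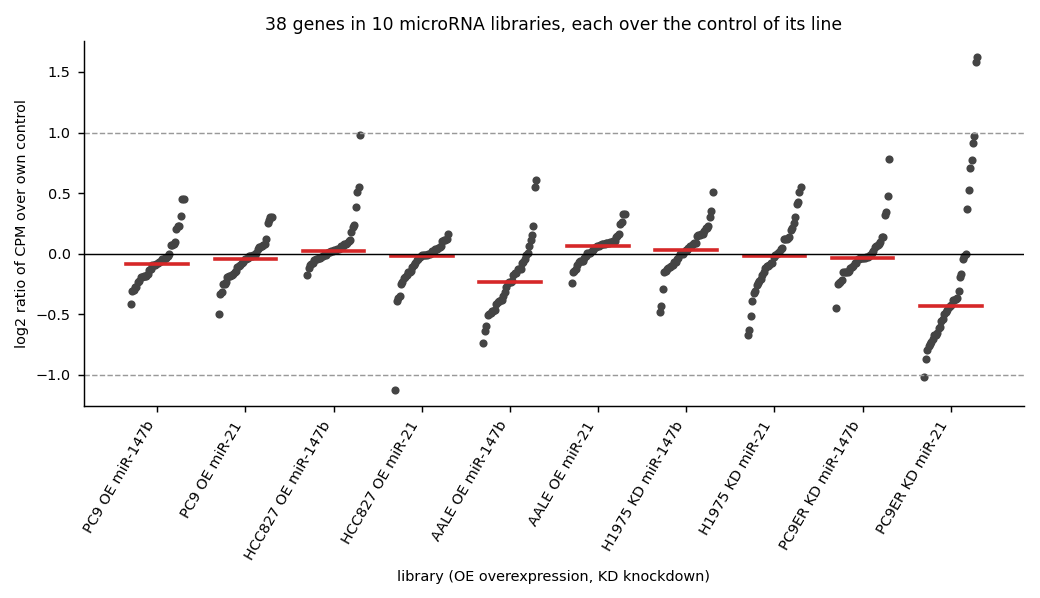
Log2 ratio of CPM of the 38 genes in each of the 10 microRNA libraries over the control of its line, ordered by size within a library, with the median as a red bar and dashed lines at a log2 ratio of 1 in either direction. The medians lie within 0.1 of 0 except in AALE with miR-147b (-0.23) and PC9ER with miR-21 knockdown (-0.43).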

How the data were processed

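Messenger RNA of 21 libraries was measured by RNA-seq. The deposited tables hold expected counts for each gene, which the authors made with Bowtie2 and RSEM on GRCh37 according to the submitters' processing notes. The sources used here name no versions, annotation or means of knockdown. A deposited summary gives 17932024 to 33129732 reads per library and 96.4 to 97.1 percent of bases at quality 30 or more; its yield in megabases was not used. RSEM shares reads between similar genes, so 64.3% of nonzero values were fractional, and all were rounded. The 5 control columns present in both microRNA tables were identical and entered once. MAP1LC3B, CTSL2 and NBR1 have close relatives or overlapping neighbours and are uncertain to that extent.

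Separate edgeR 4.0.16 fits (R 4.3.3) covered the 6 tolerance, 9 overexpression and 6 knockdown libraries, with TMM, filterByExpr, the quasi-likelihood test and Benjamini-Hochberg adjustment over all tested genes at 0.05. The cell line was a block, or the condition where lines were compared. Lines pair the libraries: centred by group, libraries of a line correlated at 0.706 to 0.93. Single pairs used log2 ratios of CPM with a prior count of 2 and no test. P-values reflect spread between samples that may be technical. The fits were run on simulated counts with known changes, the same spread for all genes and no other differences between lines. This checks the code, not how the tests behave on the real libraries. Named genes were those that passed and, per comparison, up to 6 per direction with the largest change, 1 sign in all lines and at least 1 log2 CPM on average; from other lists up to 2 that passed, or the nearest, of which some are printed; others were named after their values were seen. Alternatives were DESeq2 1.42.0, its size factors, no filter, all 21 libraries together, no block, each library left out, another prior count and no TMM. The genes, roles and lists were chosen with earlier results of these data known. Promoters are from RefSeq and exon lengths from GENCODE 29, both on GRCh38.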

Additional observations from a re-analysis of the deposited data

Results flagged for a closer look

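NEU1 met the criterion of a tested difference between cell lines. Its change with tolerance in HCC827 minus that in PC9 was -1.67 on the log2 scale (edgeR adjusted p = 0.0382), with all 4 tolerant libraries above their parental library. The parental PC9 library, at 14.1 CPM, was the lowest of the 6 PC9 libraries, and with the overexpression libraries as further drug-free controls the difference was -0.44 (edgeR adjusted p = 0.569). With 1 parental library per line, the p-value from parental controls alone does not cover spread between parental libraries. What sets parental PC9 apart was not tested.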

How the results depend on the processing

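The counts of called genes over the tolerant cells depended on the test and the controls, and the cause was not tested. For gefitinib, osimertinib and their mean, edgeR called 0 of the 38 genes, DESeq2 8, 8 and 11 (7.98%, 10.8% and 14.6% of all genes), a fit of all 21 libraries 13, 15 and 15 (10.5%, 13.6% and 18.2%), and the fit with overexpression libraries as further drug-free controls, chosen after seeing the data, 12, 12 and 17 (18.6%, 24.9% and 35.5%); without a filter on low counts they were 0, 2 and 3, the last 2 beside 0.380% and 1.44% of all genes. Leaving out 1 library at a time gave 0 to 9 for gefitinib, 0 to 10 for osimertinib and 0 to 10 for the mean. The highest value of each came without parental PC9 (16.5%, 18.4% and 21.3% of all genes), and the other nonzero values were 2 for osimertinib without gefitinib-tolerant HCC827 (0.370%) and 1 for the mean without gefitinib-tolerant PC9 (0.0749%). For the difference between lines the count was 1, with DESeq2 3 (15.7% of all genes), with all 21 libraries 2 (4.89%), without a filter 0 (0.00832%), and 0 to 0 with each tolerant library left out (0%). For miR-21 knockdown the left-out libraries gave 0 to 15, the highest without H1975 miR-21 knockdown (30.1%). For H1975 against PC9ER the count of 16 became 26 with all 21 libraries (52.9%) and 7 to 27 with 1 library left out. AALE (24 to 30) and HCC827 against PC9 (19 to 29) stayed within 1.5 times their counts under every alternative run, and the other microRNA counts and osimertinib against gefitinib stayed at 0. Without TMM factors the median of all genes moved from 0.03 to 0.18 and 0.21 in the PC9 pairs. Genes past the fold went from 3 to 5 in PC9ER with miR-21 knockdown without TMM, and from 0 to 1 in HCC827 with miR-147b both without TMM and at a prior count of 0.5.

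The cell lines pair the libraries. The fit without the line as a replicate block called 0 of the 38 genes in each tolerance and microRNA comparison and changed no count of calls; CLN3 under miR-147b knockdown was -0.0018 in it, -0.0098 in DESeq2 and -0.0099 with DESeq2 size factors, against 0.01. Over the 12 alternatives for the mean of both drugs, genes whose pairs differed in sign took both signs: CTSD ran from -0.615 to 0.891, UVRAG from -0.381 to 0.707, CLN3 from -0.156 to 0.875, GUSB from -0.745 to 0.186, SQSTM1 from -0.334 to 0.525 and TFEB from -0.494 to 0.308, and ATP6AP1, BECN1, GAA, GLB1 and MCOLN1 also turned; for CTSD, UVRAG, CLN3, GUSB and SQSTM1 both ends came from leaving out 1 parental library. With the further drug-free controls TFE3 was 0.0035 for gefitinib, 0.0149 for osimertinib and 0.0092 for the mean, and the line difference of ATP6AP1 was 0.0822. With 1 library left out ATG16L1 ranged from -0.0878 to 0.001 under miR-147b overexpression and MAP1LC3B from -0.0768 to 0.447 under miR-21 knockdown. Under miR-147b knockdown CLN3 ranged from -0.1675 to 0.1947, CTSH from -0.3209 to 0.1269, GLB1 from -0.3554 to 0.046, HEXA from -0.2751 to 0.0467, LAMP2 from -0.0475 to 0.2718, SQSTM1 from -0.1084 to 0.2008 and WIPI1 from -0.0333 to 0.2779. Depth limits TFEB most.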
